A study of Homo sapiens with 24 samples.

Results

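The genes that license, fire and run DNA replication origins were followed through a CDK4/6 inhibitor, an oestrogen receptor degrader and both agents together in a pair of oestrogen receptor-negative breast cancer cell lines. The set holds 50 genes of 59609 named gene rows. The rule that names them uses the roles of the proteins and no measured value, but they were chosen with earlier results of these data known. The set was divided into 7 roles: the MCM2-7 helicase (6 genes), origin licensing (9), origin firing (9), the replicative polymerases (9), the clamp and clamp loader (6), Okazaki fragment maturation (3), and single-stranded DNA binding with fork protection (8). Both MDA-MB-231 and the second line, MDA-MB-453, are labelled wild type, and were cultured for 5 days with DMSO as vehicle, with 500 nM abemaciclib, with 5 nM fulvestrant, or with abemaciclib and fulvestrant combined. Abemaciclib inhibits the cyclin-dependent kinases CDK4 and CDK6, and fulvestrant binds the oestrogen receptor and leads to its degradation. Each of the 8 groups held 3 libraries made from RNA by 3′ tag sequencing, which reads a fragment next to the poly(A) tail of each transcript. Each line is a single cell line, so a difference between the lines is a difference between these 2 lines and not between classes of tumour.

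Replication is prepared in G1, when the origin recognition complex together with CDC6 and CDT1 loads MCM2-7 double hexamers onto DNA, a step known as licensing. In S phase the kinases DBF4-CDC7 and CDK turn licensed origins into active forks by recruiting CDC45 and the GINS complex to the helicase. DNA polymerase alpha-primase then lays down primers, polymerases epsilon and delta extend them on the sliding clamp PCNA, and FEN1 and LIG1 join the lagging-strand fragments. Many of these genes are textbook targets of E2F transcription factors, which RB holds in check until CDK4/6 and CDK2 phosphorylate it.

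The libraries held 2873558 to 4158762 counts each. The labelled lines were first checked against defining markers. VIM, a mesenchymal filament, averaged between 1543 ± 159 and 1889 ± 148 CPM (SD, n = 3) in the MDA-MB-231 groups and was at 0 in every MDA-MB-453 library. PIP, a secreted protein of the apocrine lineage, averaged 43.1 to 424 CPM in the MDA-MB-453 groups and was at 0 in every MDA-MB-231 library. ESR1, the fulvestrant target, had between 0 and 8 counts per group in all 8 groups. CPM here means counts per 1000000 counts of a library, after the library totals of a line had been scaled by TMM factors (edgeR's trimmed mean method). PIP rose by 3.28 ± 0.10 on the log2 scale with abemaciclib in MDA-MB-453 (adjusted p = 4.0e-34), and the part of such shifts in the results was not tested. In 3 groups 1 library stood apart from its replicates by the chi-square of their counts per degree of freedom: MDA-MB-231 fulvestrant replicate 1 (8.65 and 7.81, against 2.96 for the other pair), MDA-MB-453 abemaciclib replicate 1 (7.67 and 8.18, against 3.76) and MDA-MB-453 fulvestrant replicate 3 (7.31 and 8.39, against 2.97). Without MDA-MB-453 abemaciclib replicate 1, abemaciclib called 41 members in that line, losing POLE and PRIM2 and gaining TIPIN. A smaller gap was seen for MDA-MB-231 abemaciclib replicate 3 (4.98 and 6.05, against 3.76). Without that library ORC2, POLD3, PRIM2, RFC2 and TIMELESS lost their abemaciclib calls in MDA-MB-231. At this depth 3 counts over a group of 3 libraries corresponded to 0.254 to 0.3 CPM. A gene was called changed when edgeR's quasi-likelihood test gave an adjusted p (Benjamini-Hochberg, over all genes tested) under 0.05. All 50 members had enough counts to be tested in both lines.

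Abemaciclib lowered most of the replication genes in both lines, and it lowered 31 of them further in MDA-MB-453 by the test of the difference. Of the 50 members 36 were called lower and 0 higher in MDA-MB-231, against 16.9% lower and 16.9% higher of the 11314 genes tested. The MDA-MB-231 falls were mostly moderate: when a change of at least 1.5 times was tested for, 15 members were called there, and MCM4, ORC2, CDC7, RECQL4, POLE, FEN1 and DNA2 were among those lost. In MDA-MB-453, 42 were called lower and 0 higher, against 19.4% lower and 16.6% higher of 11080 genes, and 37 passed the test for 1.5 times. These shares of genes called come from the test without a minimum change, so they are no background for the counts of 15 and 37. On the log2 scale the median fold change of the members was -0.71 for MDA-MB-231 cells and -1.76 for MDA-MB-453 cells, whereas the median over all genes tested was -0.00 in each line. Expressed as remaining transcript, the median member stood at 61.2% of its DMSO level in MDA-MB-231, with a range from 13.3% for PRIM1 to 136% for ORC4. In MDA-MB-453 the median was 29.6%, from 0% for MCM10 to 130% for ORC2, and 8 members were under 10%, 22 under 25% and 38 under 50%. Every abemaciclib library was below every DMSO library for 40 members in MDA-MB-231 (22.4% of all genes) and for 44 in MDA-MB-453 (24% of all genes).

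Summed over the 50 genes, the level in MDA-MB-231 was 3719 ± 62.6 CPM with DMSO, 2273 ± 55.4 with abemaciclib, 3687 ± 64.4 with fulvestrant and 2130 ± 38.5 with the combination (mean ± SD, n = 3). In MDA-MB-453 the same sum was 2876 ± 64.3, 832 ± 8.54, 3057 ± 49.7 and 841 ± 22.5 CPM. Proliferation markers outside the set were also lower with abemaciclib. MKI67, the Ki-67 antigen of cycling cells, went from 518 ± 25.2 to 190 ± 14.6 CPM with abemaciclib in MDA-MB-231 and from 276 ± 18.2 to 1.72 ± 0.749 CPM in MDA-MB-453. CCNA2, the S and G2 phase cyclin A2, had log2 fold changes of -1.58 ± 0.15 and -6.30 ± 0.39 (SE) in the same comparisons. In bulk RNA, fewer cells in S phase and less RNA of these genes per cell cannot be told apart, and the part of the number of cycling cells in the values that follow was not tested.

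**Figure D1:**
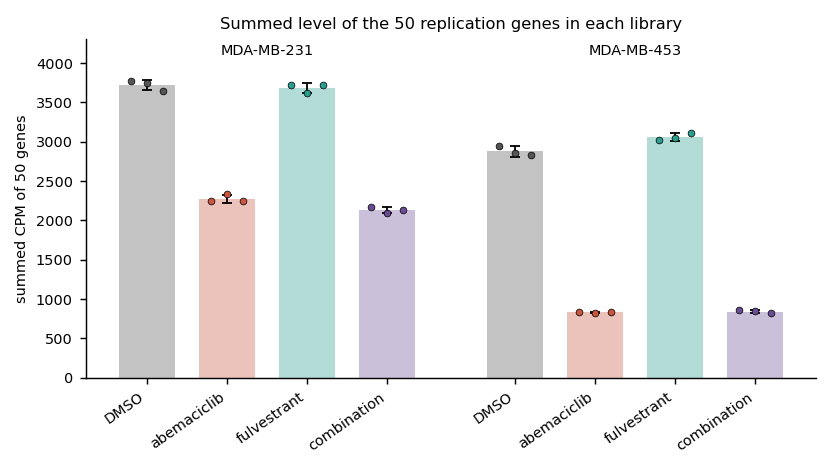
Summed level of the 50 replication genes (CPM, linear axis from 0) for the 4 treatments in each line, with bars for the mean, whiskers for the SD and a point for each of 3 libraries. The abemaciclib and combination bars stand at 2273 and 2130 CPM in MDA-MB-231 and at 832 and 841 CPM in MDA-MB-453, whereas the fulvestrant bars lie close to DMSO.

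Promoter sequence was examined because most of the set moved together. RefSeq promoters (GRCh38.p14, 250 bases before to 50 bases after the annotated start) were matched by symbol for 42 of the 50 members. The E2F words searched were TTTGGCGC, TTTCCCGC, TTTCGCGC and TTTGCCGC on both strands, and matches of a pair of words may overlap. At least 1 word was present in 19 of the 42 promoters (45.2%), against 5.58% of the promoters of 9586 tested genes and 3.33% of all 27305 promoters of this length. Of the members called lower with abemaciclib in both lines, 13 of 27 promoters (48.1%) held a word, as did 5 of 10 (50%) of those called in 1 line and 1 of 5 (20%) of those called in neither. The CCAAT box (CCAAT, both strands) was in 57.1% of the members' promoters, in 37.5% of those of tested genes and in 35.7% of all promoters. The cell cycle homology region words TTTGAA and TTTAAA were in 2.38% of the members' promoters, in 15.3% of those of tested genes and in 24.3% of all promoters. With the window cut to the 200 bases before the start, the E2F share was 28.6% for members and 3.77% for tested genes. These matches describe letters in a window, and binding was not measured.

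The stretch from 160 bases before the start to the 20 bases from the start onwards is shown, 5′ to 3′ on the gene's own strand, for 9 members that set large falls beside members with no call. CLSPN (chr1:35769959-35770138, minus strand), GINS2 (chr16:85688935-85689114, minus strand), MCM6 (chr2:135876424-135876603, minus strand) and MCM2 (chr3:127598251-127598430, plus strand) were shown as large falls in MDA-MB-453 whose promoter holds a word. CDC45 (chr22:19479760-19479939, plus strand) and ORC1 (chr1:52404404-52404583, minus strand) fell further than MCM2 there and hold none, and were added after their values were seen. MCM10 (chr10:13161398-13161577, plus strand) lost every count there. ORC3 (chr6:87589975-87590154, plus strand) and RFC1 (chr4:39366343-39366522, minus strand) were not called in either line. Capitals mark the E2F words, and all other bases are in lower case.
CLSPN: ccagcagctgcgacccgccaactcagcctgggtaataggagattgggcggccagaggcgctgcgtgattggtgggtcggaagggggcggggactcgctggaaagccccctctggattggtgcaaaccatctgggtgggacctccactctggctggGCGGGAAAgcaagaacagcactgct
GINS2: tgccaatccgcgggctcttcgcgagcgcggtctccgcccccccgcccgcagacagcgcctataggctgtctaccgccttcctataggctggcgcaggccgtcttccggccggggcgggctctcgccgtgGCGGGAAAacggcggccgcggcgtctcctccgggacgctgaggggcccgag
MCM6: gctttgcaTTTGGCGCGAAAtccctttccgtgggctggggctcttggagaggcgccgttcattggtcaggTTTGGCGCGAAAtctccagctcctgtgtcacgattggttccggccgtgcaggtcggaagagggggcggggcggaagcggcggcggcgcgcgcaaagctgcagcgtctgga
MCM2: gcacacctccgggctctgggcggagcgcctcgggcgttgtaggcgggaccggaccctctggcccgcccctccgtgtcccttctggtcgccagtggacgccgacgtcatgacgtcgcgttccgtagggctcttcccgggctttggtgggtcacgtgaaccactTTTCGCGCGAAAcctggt
CDC45: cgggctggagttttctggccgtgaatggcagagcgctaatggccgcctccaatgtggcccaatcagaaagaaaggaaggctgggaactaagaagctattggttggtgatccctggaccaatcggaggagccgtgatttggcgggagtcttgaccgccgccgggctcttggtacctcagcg
ORC1: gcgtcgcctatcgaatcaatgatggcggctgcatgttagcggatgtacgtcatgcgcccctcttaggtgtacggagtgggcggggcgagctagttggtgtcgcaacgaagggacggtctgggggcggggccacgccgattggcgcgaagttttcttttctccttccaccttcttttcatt
MCM10: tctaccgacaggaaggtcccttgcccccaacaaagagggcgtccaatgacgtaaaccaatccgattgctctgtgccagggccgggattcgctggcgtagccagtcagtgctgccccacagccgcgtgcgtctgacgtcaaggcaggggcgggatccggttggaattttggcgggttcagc
ORC3: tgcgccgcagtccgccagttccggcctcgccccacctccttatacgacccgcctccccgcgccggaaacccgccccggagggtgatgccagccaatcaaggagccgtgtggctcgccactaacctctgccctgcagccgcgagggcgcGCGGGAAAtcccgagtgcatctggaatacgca
RFC1: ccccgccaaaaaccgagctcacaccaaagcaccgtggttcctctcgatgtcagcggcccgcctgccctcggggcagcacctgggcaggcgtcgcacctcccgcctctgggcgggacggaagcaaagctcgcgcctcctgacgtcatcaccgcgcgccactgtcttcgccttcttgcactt

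In MCM6 each capital run is a pair of overlapping words, TTTGGCGC on the printed strand and GCGCGAAA, which is TTTCGCGC on the other strand. MCM2 carries the same kind of overlapping pair just after the start. CLSPN, GINS2 and ORC3 each carry GCGGGAAA, which is TTTCCCGC on the other strand. A word was thus present in a member that was not called (ORC3), and none of the 4 words was present in the 180 bases shown of MCM10, CDC45 and ORC1, whose falls in MDA-MB-453 were among the largest. Only exact matches were searched, so the absence of a word is not the absence of an E2F site. Near matches to TTTGGCGC stand in the bases shown of MCM10 and CDC45 (tttggcgg) and ORC1 (attggcgc). Near matches were not counted in any promoter. The 4 large falls with a word were chosen for holding one, so their number says nothing of how often large falls do.

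**Figure D2:**
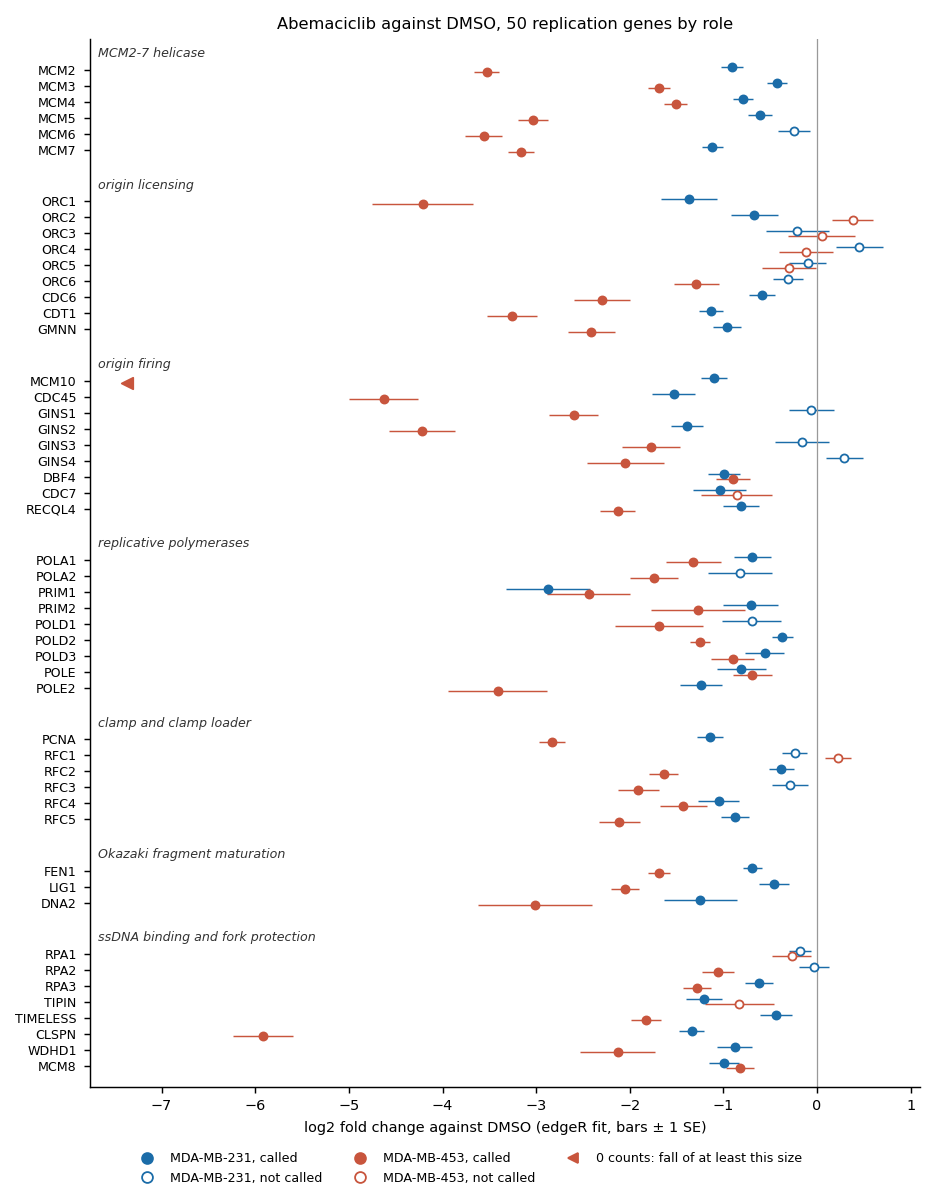
Log2 fold change of abemaciclib against DMSO for each of the 50 members, grouped by role, in MDA-MB-231 and MDA-MB-453. Filled points passed the test and open points did not, whiskers are ± 1 SE, and the triangle puts MCM10 in MDA-MB-453 at the bound set by 0 counts. Called falls are seen in all 7 roles in both lines, and ORC3, ORC4, ORC5, RFC1 and RPA1 are open in both.

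The MCM2-7 helicase, the ring that unwinds DNA at the fork, showed the deepest median fall in MDA-MB-453. All 6 subunits were called lower there, with a median log2 fold change of -3.09 and a median of 11.6% of transcript remaining. In MDA-MB-231, 5 of the 6 were called lower with a median of -0.70, and 61.8% remained. MCM2 read 169, 175 and 169 CPM with DMSO and 94.3, 79.3 and 99 CPM with abemaciclib in MDA-MB-231. The MDA-MB-453 libraries read 241, 219 and 229 CPM with DMSO against 21.7, 17.9 and 19.9 CPM with abemaciclib. The treated libraries lay below the DMSO libraries in both lines, at log2 fold changes of -0.91 ± 0.12 (adjusted p = 6.6e-09) and -3.53 ± 0.13 (adjusted p = 2.0e-31). An exon of a gene on the other strand overlaps the last 500 bases of MCM2, and the strand setting of the counting is not given in the sources used here.

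MCM6 separated the lines most among the helicase subunits. With DMSO its libraries read 48.6, 36 and 50.7 CPM in MDA-MB-231, and with abemaciclib 39.9, 32.3 and 41.3 CPM. The treated and untreated libraries overlapped, and the log2 fold change of -0.25 ± 0.17 was not called (adjusted p = 0.273). In MDA-MB-453 the level went from 78.6, 83.9 and 65.1 CPM to 5.93, 7.05 and 6.21 CPM, a log2 fold change of -3.56 ± 0.20 (adjusted p = 5.5e-22). The difference between the lines was -3.31 ± 0.27 on the log2 scale (adjusted p = 2.2e-15). MCM4 moved least in MDA-MB-453, from 168, 179 and 196 CPM to 69.1, 70.2 and 50.3 CPM, a log2 fold change of -1.51 ± 0.12 (adjusted p = 1.1e-16). In MDA-MB-231 it went from 173, 194 and 178 CPM to 110, 119 and 88.6 CPM, at -0.79 ± 0.11 (adjusted p = 1.3e-07). The remaining subunits MCM3, MCM5 and MCM7 fell in both lines, by -0.43, -0.61 and -1.12 in MDA-MB-231 and by -1.69, -3.03 and -3.16 in MDA-MB-453. For all 6 subunits the fall was larger in MDA-MB-453 by the test of the difference. MCM4 lost that call with a minimum change of 1.5 times tested for (adjusted p = 0.393).

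Among the 9 licensing genes the loading factors fell and the core origin recognition subunits mostly did not. In each line 5 of the 9 were called lower, with a median of -0.59 in MDA-MB-231 cells and -1.29 in the other line. ORC1, the subunit whose level cycles with S phase entry, read 16.5, 17.7 and 18.7 CPM with DMSO and 8.6, 5.49 and 6.29 CPM with abemaciclib in MDA-MB-231. The MDA-MB-453 values were 11.3, 17.6 and 10.5 CPM, then 0.774, 0.881 and 0.327 CPM. The groups did not overlap in either line, and the log2 fold changes were -1.37 ± 0.30 (adjusted p = 2.8e-04) and -4.21 ± 0.54 (adjusted p = 3.7e-09), the second resting on 7 counts in the treated group. CDT1, which brings MCM2-7 to origins, fell by 1.13 and 3.26 on the log2 scale. GMNN encodes geminin, the inhibitor of CDT1, and fell by 0.96 and 2.41. CDC6, the ATPase that joins the origin complex, fell by 0.59 and 2.30.

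None of ORC2 to ORC5 was called lower in both lines. ORC3 read 10.7, 12.1 and 7.55 CPM with DMSO and 7.17, 13.1 and 6.02 CPM with abemaciclib in MDA-MB-231, and 8.09, 5.41 and 8.77 CPM against 8, 9.1 and 5.88 CPM in MDA-MB-453. The libraries of both treatments were interleaved, and the log2 fold changes were -0.21 ± 0.34 (adjusted p = 0.673) and 0.05 ± 0.36 (adjusted p = 0.927). The 95% interval in MDA-MB-453, from -0.65 to 0.76, still allows a change of moderate size. ORC4 had values of 0.45 and -0.12, and ORC5 of -0.10 and -0.30, none of them called, and an exon of ACVR2A on the other strand overlaps the last 500 bases of ORC4. ORC2, singled out after its values were seen, took opposite directions in the lines. It read 25, 23.6 and 21.1 CPM against 16.1, 17.4 and 10.7 CPM in MDA-MB-231, and 21.7, 18.7 and 15 CPM against 25, 19.4 and 27.8 CPM in MDA-MB-453. The log2 fold changes of ORC2 were -0.67 ± 0.25 (adjusted p = 0.0366) and 0.38 ± 0.22 (adjusted p = 0.187) in that order, and the difference of 1.05 ± 0.35 was called (adjusted p = 0.0214). The ORC2 call in MDA-MB-231 was lost in DESeq2 (adjusted p = 0.0554) and without DMSO replicate 1 or 2 or abemaciclib replicate 1 or 3 (adjusted p up to 0.196). That of the difference was lost without MDA-MB-231 DMSO 1 or 2 or abemaciclib 3, or MDA-MB-453 DMSO 3 or abemaciclib 1 or 3 (adjusted p up to 0.118). ORC6 was called lower in MDA-MB-453 at -1.29 ± 0.24, and had -0.31 in MDA-MB-231 (adjusted p = 0.13).

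Origin firing held the member with the fewest counts left. In MDA-MB-453 8 of the 9 firing genes were called lower (median -2.13, 23.1% remaining), and in MDA-MB-231 6 of 9 (median -0.99, 50% remaining). MCM10, which binds the activated helicase, read 117, 114 and 102 CPM with DMSO and 45, 58 and 52.5 CPM with abemaciclib in MDA-MB-231 (-1.10 ± 0.14, adjusted p = 7.2e-09). In MDA-MB-453 it read 48.2, 52.5 and 42.2 CPM with DMSO and 0 in all 3 abemaciclib libraries. The 510 counts of the DMSO group became 0, so MCM10 was at least 165-fold lower, with 3 counts over the group taken as the limit. CDC45, the helicase cofactor, went from 37, 39.3 and 32 CPM to 16.3, 10.7 and 10.4 CPM in MDA-MB-231, at -1.53 ± 0.23 (adjusted p = 4.3e-07). In MDA-MB-453 it went from 34.4, 28.4 and 26.6 CPM to 0.516, 0.881 and 2.29 CPM, at -4.63 ± 0.37 (adjusted p = 8.1e-16), with 12 counts left in the treated group. Both genes were thus near the detection limit in treated MDA-MB-453 and well above it in treated MDA-MB-231.

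The 4 subunits of the GINS complex, which completes the active helicase, were split in MDA-MB-231 and fell together in MDA-MB-453. GINS2 went from 68.1, 63.2 and 66.1 CPM to 26.7, 19.8 and 28.4 CPM in MDA-MB-231 (-1.39 ± 0.17, adjusted p = 2.1e-09), and from 34.1, 30.6 and 35.1 CPM to 1.55, 1.17 and 2.61 CPM in MDA-MB-453 (-4.22 ± 0.35, adjusted p = 4.3e-15). GINS1 overlapped between treatments in MDA-MB-231, with 19.6, 11.8 and 21.7 CPM against 14.9, 18.9 and 17 CPM (-0.06 ± 0.24, adjusted p = 0.869). In MDA-MB-453 it dropped from 46.5, 38.4 and 33.1 CPM to 5.93, 7.93 and 5.55 CPM (-2.60 ± 0.26, adjusted p = 1.8e-12). GINS3 and GINS4 followed GINS1, with -0.16 and 0.29 in MDA-MB-231, neither called, and called falls of -1.77 ± 0.31 and -2.05 ± 0.41 in MDA-MB-453. The difference between lines was called for all 4 subunits. GINS1, GINS2 and GINS4 have an exon of a gene on the other strand within their last 500 bases, as does CDC45.

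For the kinase pair that triggers firing the difference between the lines was not called. DBF4, the regulatory subunit, read 79.7, 76.4 and 77 CPM against 41.3, 27.1 and 48.1 CPM in MDA-MB-231 and 41.6, 60.1 and 46.1 CPM against 19.9, 29.9 and 29.7 CPM in MDA-MB-453. Its log2 fold changes were -0.99 ± 0.17 (adjusted p = 6.3e-06) and -0.90 ± 0.18 (adjusted p = 4.8e-05), and the difference had a 95% interval from -0.42 to 0.61. CDC7, the catalytic subunit, read 15.6, 27.2 and 23.5 CPM against 8.32, 11.9 and 12 CPM in MDA-MB-231 (-1.04 ± 0.28, adjusted p = 0.00241). The MDA-MB-453 libraries read 9.24, 11.4 and 6.51 CPM against 4.38, 4.7 and 5.88 CPM. All treated libraries lay below the DMSO libraries there too, but -0.86 ± 0.38 was not called (adjusted p = 0.0726), and the interval of the difference ran from -0.75 to 1.11. RECQL4, a helicase needed for firing, fell from 47.3, 40.4 and 38.9 CPM to 19.8, 24.7 and 27.9 CPM in MDA-MB-231 (-0.81 ± 0.19, adjusted p = 6.6e-04). In MDA-MB-453 it fell from 65, 70.9 and 58 CPM to 11.9, 12.6 and 20.2 CPM (-2.13 ± 0.19, adjusted p = 4.1e-14), and the difference of -1.32 ± 0.28 was called (adjusted p = 2.2e-04).

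The replicative polymerases fell in both lines. In MDA-MB-231 7 of the 9 subunits were called lower (median -0.71) and in MDA-MB-453 all 9 (median -1.32), yet the difference between lines was called for POLD2 and POLE2 alone. POLE2, the second subunit of polymerase epsilon, went from 32.1, 37.5 and 36.8 CPM to 12.3, 19.2 and 13.7 CPM in MDA-MB-231 (-1.24 ± 0.22, adjusted p = 7.8e-06). In MDA-MB-453 it went from 11.8, 10.6 and 12.7 CPM to 0.516, 1.47 and 1.31 CPM (-3.41 ± 0.53, adjusted p = 5.1e-07). POLE, the catalytic subunit of the same leading-strand enzyme, had no called difference between the lines. It read 24.7, 18.9 and 33.2 CPM against 9.75, 18 and 16.1 CPM in MDA-MB-231 (-0.81 ± 0.26, adjusted p = 0.0138), and 30.6, 32.2 and 30 CPM against 16, 20 and 21.9 CPM in MDA-MB-453 (-0.69 ± 0.21, adjusted p = 0.00745). The interval of the difference ran from -0.55 to 0.81. Leaving out DMSO replicate 3 or abemaciclib replicate 1 ended the POLE call in MDA-MB-231 (adjusted p of 0.151 and 0.123), and leaving out abemaciclib replicate 1 ended it in MDA-MB-453 (adjusted p = 0.0547).

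PRIM1, the catalytic primase subunit, had the largest fall of any member in MDA-MB-231. It read 12.2, 18 and 20.5 CPM with DMSO and 3.15, 0.61 and 3.01 CPM with abemaciclib there (-2.87 ± 0.45, adjusted p = 8.3e-07), and 12.7, 13 and 15 CPM against 0.774, 1.47 and 5.55 CPM in MDA-MB-453 (-2.44 ± 0.44, adjusted p = 9.4e-06). The groups did not overlap in either line, but PRIM1 is uncertain because it shares exons with NACA on its own strand and with HSD17B6 on the other. MCM7, POLA2, POLD1, POLD3, FEN1, TIPIN and MCM8 also share exons with a gene on their own strand. The partner of PRIM1, PRIM2, was called lower at -0.71 ± 0.29 and -1.27 ± 0.50, and both calls were lost with no filter on low counts. The PRIM2 call in MDA-MB-231 was also lost without DMSO replicate 1 or 3 or abemaciclib replicate 1, 2 or 3 (adjusted p up to 0.202). That in MDA-MB-453 was lost without DMSO replicate 1 or 2 or abemaciclib replicate 1 or 3 (adjusted p up to 0.161). The polymerase alpha subunits gave -0.69 and -1.32 for POLA1, both called, and -0.82 and -1.74 for POLA2, of which the first was not called (adjusted p = 0.0538) and whose last 500 bases also overlap an exon on the other strand. For polymerase delta, the lagging-strand enzyme, POLD1 gave -0.70 (adjusted p = 0.0903) and a called -1.69, POLD2 -0.37 and -1.25, and POLD3 -0.56 and -0.90, with both values called for the latter pair. The POLD3 call in MDA-MB-231 was lost with no filter on low counts (adjusted p = 0.0602). It was also lost without DMSO replicate 2 or 3 or abemaciclib replicate 2 or 3 (adjusted p up to 0.138).

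PCNA, the sliding clamp, fell in every treated library. It read 103, 98.3 and 93.3 CPM with DMSO and 49.9, 40.6 and 43.5 CPM with abemaciclib in MDA-MB-231 (-1.14 ± 0.14, adjusted p = 3.7e-09). In MDA-MB-453 it read 148, 146 and 137 CPM against 19.9, 21.1 and 19.6 CPM (-2.83 ± 0.14, adjusted p = 2.0e-25). The replicates lay close together, and the difference between the lines was -1.69 ± 0.19 (adjusted p = 3.5e-10). The loader that opens this clamp did not move as one. Its large subunit RFC1 read 117, 103 and 123 CPM against 97.5, 95.2 and 97.9 CPM in MDA-MB-231 (-0.24 ± 0.13, adjusted p = 0.17), and 55.4, 57.9 and 57.2 CPM against 67.6, 60.2 and 70.9 CPM in MDA-MB-453 (0.22 ± 0.14, adjusted p = 0.234). Neither was called, although the libraries did not overlap in either line and the sign differed. The small subunits RFC2, RFC4 and RFC5 fell in both lines, by 0.38, 1.05 and 0.88 on the log2 scale in MDA-MB-231 and by 1.64, 1.43 and 2.11 in MDA-MB-453. The RFC2 call in MDA-MB-231 was lost without DMSO replicate 2 or 3 or abemaciclib replicate 2 or 3 (adjusted p up to 0.174). RFC4 and RFC5 have an exon of a gene on the other strand, EIF4A2 and WSB2, within their last 500 bases. RFC3 fell by 1.91 in MDA-MB-453 and had -0.29 in MDA-MB-231 (adjusted p = 0.242).

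All 3 genes of Okazaki fragment maturation were called lower in both lines, with medians of -0.69 and -2.05. FEN1, the flap endonuclease, read 378, 320 and 320 CPM against 204, 230 and 195 CPM in MDA-MB-231 (-0.69 ± 0.10, adjusted p = 1.1e-07), and 143, 153 and 149 CPM against 52.9, 41.4 and 43.1 CPM in MDA-MB-453 (-1.69 ± 0.12, adjusted p = 9.6e-18). LIG1, the ligase that seals the fragments, fell by 0.46 and 2.05 on the log2 scale. DNA2, the nuclease for long flaps, was measured at low counts, with 8.86, 12.7 and 9.36 CPM against 5.74, 3.05 and 4.1 CPM in MDA-MB-231 (-1.25 ± 0.39, adjusted p = 0.0105). In MDA-MB-453 it read 8.09, 5.69 and 8.49 CPM against 0, 0.881 and 1.96 CPM (-3.01 ± 0.61, adjusted p = 5.5e-05). The DNA2 call in MDA-MB-231 was lost without DMSO replicate 2 (adjusted p = 0.062) or abemaciclib replicate 2 (adjusted p = 0.0599). The difference between lines was called for FEN1 and LIG1, and for DNA2 it was -1.76 ± 0.72 (adjusted p = 0.0754).

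Fork protection gave the largest fall that could be measured without a bound. CLSPN encodes claspin, which couples the fork to the checkpoint kinase CHK1. In MDA-MB-231 it read 196, 184 and 193 CPM with DMSO and 70, 66.5 and 89.2 CPM with abemaciclib (-1.34 ± 0.13, adjusted p = 1.2e-12). In MDA-MB-453 it read 56, 58.7 and 49.2 CPM against 1.29, 0.881 and 0.327 CPM (-5.92 ± 0.32, adjusted p = 8.8e-23), with 9 counts left in the treated group. The difference of -4.57 ± 0.38 was called (adjusted p = 5.4e-15). TIMELESS and TIPIN act as a pair at the fork. TIMELESS gave -0.44 and -1.83, both called. TIPIN gave a called -1.21 ± 0.19 in MDA-MB-231 and an uncalled -0.83 ± 0.37 (adjusted p = 0.0725) in MDA-MB-453. The TIMELESS call in MDA-MB-231 was lost with no filter on low counts. It was also lost without DMSO replicate 1, 2 or 3 or abemaciclib replicate 2 or 3 (adjusted p up to 0.12). TIPIN was called in MDA-MB-453 without DMSO replicate 2 (-1.16, adjusted p = 0.0145) or abemaciclib replicate 1 (-1.24, adjusted p = 0.0173). The difference was called for TIMELESS and was 0.40 ± 0.42 for TIPIN (adjusted p = 0.58). WDHD1, which links polymerase alpha to the helicase, fell by 0.88 and 2.13.

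MCM8, a helicase of fork repair outside the MCM2-7 ring, was called lower in both lines. It read 115, 129 and 91.8 CPM against 43.3, 53.4 and 71.9 CPM in MDA-MB-231 (-0.99 ± 0.16, adjusted p = 2.9e-06), and 81.4, 63.9 and 65.4 CPM against 37.9, 43.5 and 37.9 CPM in MDA-MB-453 (-0.82 ± 0.15, adjusted p = 1.0e-05). The difference between the lines was 0.18, with a 95% interval from -0.27 to 0.63. Of the RPA trimer, which coats single-stranded DNA, the large subunit RPA1 was not called in either line. RPA1 read 111, 102 and 104 CPM against 88.6, 97 and 94.4 CPM in MDA-MB-231 (-0.18 ± 0.12, adjusted p = 0.276), and 34.9, 29 and 26.9 CPM against 24, 29.4 and 21.6 CPM in MDA-MB-453 (-0.27 ± 0.21, adjusted p = 0.32). RPA2 gave -0.03 (adjusted p = 0.909) and a called -1.06 ± 0.17, and RPA3 fell in both lines by 0.62 and 1.28.

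**Figure D3:**
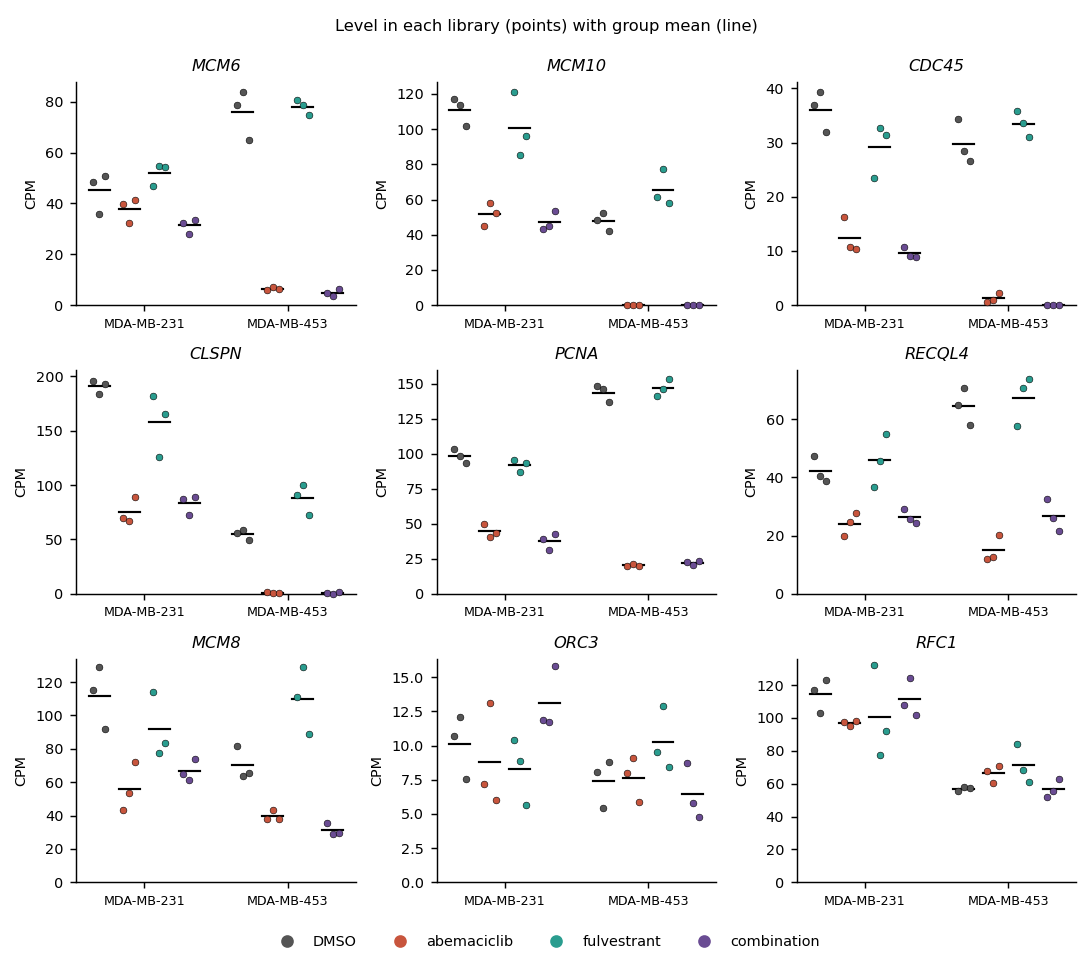
Level of 9 members (CPM) in each of the 24 libraries, by line and treatment, with a point per library and a line at the group mean. MCM10, CDC45 and CLSPN drop to or near 0 with abemaciclib in MDA-MB-453, MCM6 with abemaciclib lies apart from DMSO in MDA-MB-453 and overlaps it in MDA-MB-231, and ORC3 overlaps between DMSO and abemaciclib in both lines.

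The abemaciclib response was next compared between the lines, in a model of all 24 libraries. The fall was larger in MDA-MB-453 for 31 members, against 13.1% of the 12750 genes tested, and smaller for 1, ORC2, against 7.74%. Of the 33 members called lower in both lines, 24 fell further in MDA-MB-453 by this test. The other 9 were DBF4, POLA1, PRIM1, PRIM2, POLD3, POLE, RFC4, DNA2 and MCM8. Among the 9 members called lower in MDA-MB-453 and not in MDA-MB-231, the difference itself was called for 7 (MCM6, ORC6, GINS1, GINS3, GINS4, RFC3 and RPA2) and not for POLA2 and POLD1. Called larger falls were found for 6 of 6 helicase subunits, 5 of 9 licensing genes, 7 of 9 firing genes, 2 of 9 polymerase genes, 4 of 6 clamp and loader genes, 2 of 3 maturation genes and 5 of 8 fork genes. With a minimum change of 1.5 times tested for, MCM4, ORC2, ORC6, POLD2, RPA2, RPA3 and WDHD1 lost the difference call (adjusted p up to 0.613). WDHD1 also lost it without MDA-MB-453 DMSO replicate 2 or abemaciclib replicate 1 or 2 (adjusted p up to 0.132). RPA3 lost it without MDA-MB-231 DMSO replicate 1 or abemaciclib replicate 2, or MDA-MB-453 DMSO replicate 1 (adjusted p up to 0.0762). ORC6 lost it without MDA-MB-453 abemaciclib replicate 2 (adjusted p = 0.0508). The sizes of the responses in the lines went together loosely across the 50 members (Pearson r = 0.42, Spearman rho = 0.506), a description over genes that share libraries and not a test. MKI67 differed between the lines in the same direction, by -5.83 ± 0.31 on the log2 scale.

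**Figure D4:**
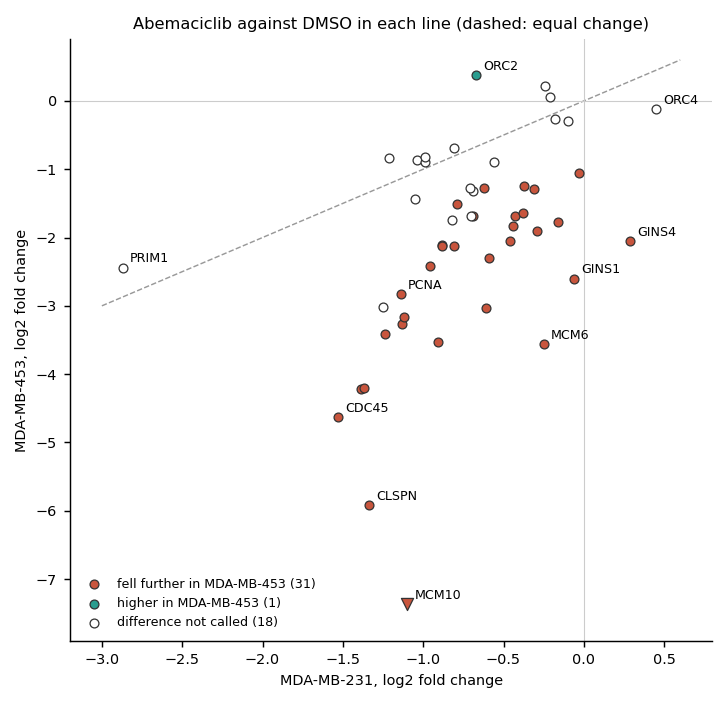
Log2 fold change of abemaciclib against DMSO in MDA-MB-231 (x axis) and MDA-MB-453 (y axis), a point per member and a dashed line of equal change. Red points fell further in MDA-MB-453 by the test of the difference (31), the green point is ORC2, open points were not called (18), and the triangle sets MCM10 at its bound. Of the 50 members 41 lie below the dashed line.

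Untreated cells were compared to see where the lines started. On the scale of all 24 libraries, 23 members were called lower and 9 higher in MDA-MB-453 than in MDA-MB-231, against 35.6% and 34.2% of all genes tested. TIPIN was lowest in relative terms, with 51.3, 40.7 and 59 CPM in MDA-MB-231 and 17.2, 5.84 and 12.2 CPM in MDA-MB-453 (-2.10 ± 0.27, adjusted p = 7.1e-10). CDC6 followed at -1.99 ± 0.17 (adjusted p = 3.5e-16). GINS1 was highest, with 19.1, 11.5 and 21.2 CPM against 47.7, 39.5 and 33.9 CPM (1.22 ± 0.23, adjusted p = 5.7e-06). Of the helicase subunits MCM2, MCM5 and MCM6 were called higher in MDA-MB-453 and MCM7 lower, and MCM3 and MCM4 were not called. MCM6, which fell so far in treated MDA-MB-453, started there 0.82 ± 0.16 higher on the log2 scale (adjusted p = 1.0e-05).

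Fulvestrant alone moved few of these genes. In MDA-MB-231 0 members were called by edgeR, as were 0% of the 11314 genes, and 3 members and 785 genes had an unadjusted p under 0.05. In MDA-MB-453 2 members were called higher, CLSPN and MCM8, against 1.34% of genes called in either direction. CLSPN read 90.8, 99.9 and 72.6 CPM with fulvestrant, each above the DMSO libraries (0.68 ± 0.17, adjusted p = 0.0317). MCM8 read 111, 129 and 88.9 CPM with fulvestrant, again above DMSO (0.64 ± 0.14, adjusted p = 0.00845). The CLSPN call was lost without any 1 of the DMSO libraries or fulvestrant replicate 1 or 2 (adjusted p up to 0.344). The MCM8 call was lost without DMSO replicate 2 or 3 or fulvestrant replicate 1 or 2 (adjusted p up to 0.248). In MDA-MB-231 the same genes had -0.28 ± 0.12 and -0.29 ± 0.15, neither called. Across the set, 11 members had all fulvestrant libraries above all DMSO libraries in MDA-MB-453 (7.78% of all genes did), and 0 had them all below (9.12% of all genes did). These were ORC2, ORC6, GMNN, MCM10, GINS2, DBF4, POLD3, RFC1, TIMELESS, CLSPN and MCM8. MKI67 gave 0.49 ± 0.13 in the same comparison (adjusted p = 0.0591), and its part in these values was not tested. Fulvestrant replicate 3 of MDA-MB-453, the library that stood apart, was lowest of the 3 for CLSPN, MCM8 and MKI67, the last at 289 CPM against 409 and 463. Without it CLSPN rose by 0.80 (adjusted p = 0.00238) and MCM8 by 0.77, and POLD3 was called higher as well (0.68, adjusted p = 0.0444). The 1.34% of genes above is from the fit of all libraries. In MDA-MB-231 0 members were called also without fulvestrant replicate 1. With all libraries of that line, 1 member lay wholly above DMSO and 2 wholly below (5.33% and 5.37% of all genes).

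**Figure D5:**
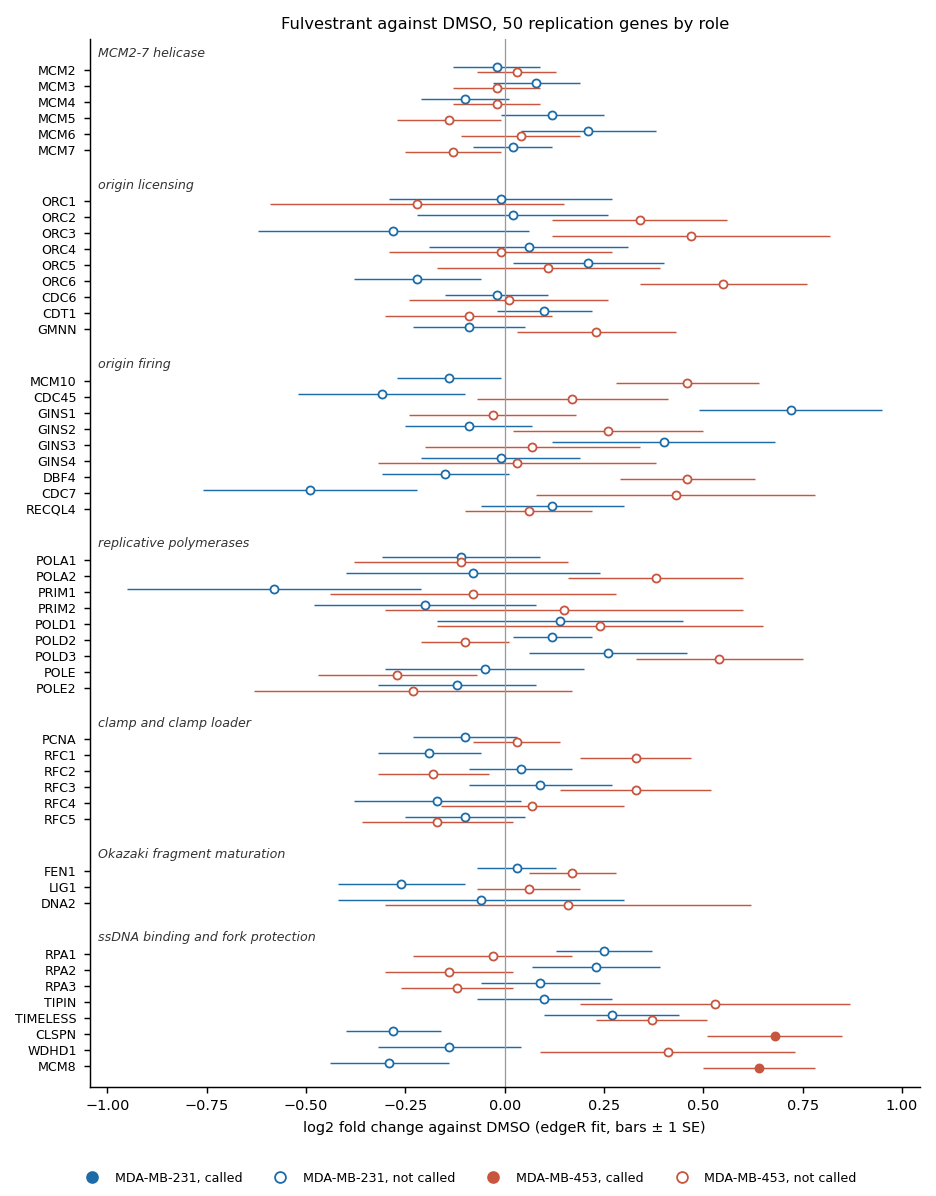
Log2 fold change of fulvestrant against DMSO for the 50 members by role in both lines, with filled points for called members, open points for the others and whiskers of ± 1 SE. The members spread from -0.58 to 0.72 in MDA-MB-231 with none called and from -0.27 to 0.68 in MDA-MB-453, where CLSPN and MCM8 are filled.

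The combination lowered the set in both lines as well. Against DMSO it lowered 37 members in MDA-MB-231 (18.4% of genes were lower and 17.1% higher) and 44 in MDA-MB-453 (20.2% lower and 17.6% higher), with medians of -0.84 and -1.68. With a minimum change of 1.5 times tested for, 22 members in MDA-MB-231 were called. The shares of genes above come from the test without that minimum. The median member stood at 55.8% of DMSO in MDA-MB-231 and at 31.4% in MDA-MB-453. RPA1, not called with abemaciclib alone, was called lower in both lines, at -0.34 ± 0.12 (adjusted p = 0.0269) and -0.80 ± 0.21 (adjusted p = 0.0022). The RPA1 call in MDA-MB-231 was lost with no filter on low counts (adjusted p = 0.0735). It was also lost without DMSO replicate 1 or 3 or combination replicate 2 or 3 (adjusted p up to 0.121). Set directly against abemaciclib, the combination was not called for RPA1 in either line. In MDA-MB-453 its combination libraries read 16.7, 14.7 and 20.5 CPM, all below DMSO. ORC2 was the single member called higher, with 27.8, 30.6 and 22.3 CPM in MDA-MB-453 (0.54 ± 0.22, adjusted p = 0.0482), a call lost with no filter on low counts (adjusted p = 0.0985) and without DMSO replicate 2 or 3 or combination replicate 1 or 2 (adjusted p up to 0.209). Between lines the combination lowered 28 members further in MDA-MB-453 (11.7% of genes) and 0 less (6.27%). The comparisons of abemaciclib, fulvestrant and the combination share their DMSO libraries, so likeness among them is not independent.

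Set directly against abemaciclib, the combination differed for 0 members in MDA-MB-231 by edgeR (0.0795% of genes were called), and 4 members had an unadjusted p under 0.05. In MDA-MB-453 it differed for 2 members (2.52% of genes). CDC45 went from 0.516, 0.881 and 2.29 CPM to 0 in all 3 combination libraries, at least 4.24-fold lower from 12 counts (adjusted p = 0.016), and at least 103-fold below DMSO. RECQL4 went the other way, from 11.9, 12.6 and 20.2 CPM to 32.7, 25.9 and 21.5 CPM (0.84 ± 0.21, adjusted p = 0.0128). The CDC45 call was lost without abemaciclib replicate 3 or any 1 of the combination libraries (adjusted p up to 0.126), and the RECQL4 call without replicate 1 or 2 of either treatment (adjusted p up to 0.132). MCM10, at 0 with abemaciclib, had 1 count in the 3 combination libraries, 0.203% of its DMSO level with an exact Poisson 95% interval from 0.00514% to 1.13% that covers counting error only.

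An interaction term asked whether the combination departed from the sum of the single-agent log2 effects. It was called for 0 members in MDA-MB-231 by edgeR (0.141% of genes), where 8 members had an unadjusted p under 0.05. In MDA-MB-453 it was called lower for 2 members, CDC45 and MCM8 (3.71% of genes). MCM8 read 35.5, 29.1 and 29.4 CPM with the combination, below the abemaciclib libraries, although fulvestrant alone had raised it (interaction -1.0 ± 0.21, adjusted p = 0.00369). The CDC45 term (adjusted p = 0.0127) rests on the 0 counts of the combination group and was lost without abemaciclib replicate 3 or combination replicate 2. Without fulvestrant replicate 3 of MDA-MB-453 4 members were called, with RECQL4 higher (0.85, adjusted p = 0.0357) and RFC1 lower (-0.64, adjusted p = 0.0303) added. Without fulvestrant replicate 1 of MDA-MB-231 2 were called there, MCM8 (0.72, adjusted p = 0.0278) and RFC1 (0.63, adjusted p = 0.0177), both higher. The shares of genes given above are from the fits of all libraries, so they are no background for these added calls.

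Accessory replication factors outside the set gave a wider view of the same pathway. Of 36 such genes 33 were tested in MDA-MB-231, where abemaciclib lowered 21 and raised 0 (median -0.68, with 16.9% of all genes lower), and 31 in MDA-MB-453, where it lowered 24 and raised 0 (median -1.13, with 19.4% of all genes lower). TOP2A, the topoisomerase that untangles replicated DNA, read 298, 268 and 318 CPM with DMSO and 2.32, 3.52 and 3.27 CPM with abemaciclib in MDA-MB-453 (-6.60 ± 0.17, adjusted p = 7.0e-39). TICRR, which delivers TOPBP1 for firing, DTL, which targets CDT1 for destruction, and UHRF1, which guides maintenance of DNA methylation, had log2 fold changes of -5.55, -5.54 and -5.55 there. In MDA-MB-231 the same 3 genes fell by 1.07, 0.67 and 1.33. TOPBP1 itself gave -0.68 in both lines, and DNMT1 -0.95 and -1.06, all called. Not every factor was called: WRN had 0.16 and 0.56 and RTF2 0.15 and -0.22, with none of the 4 values called. The WRN values were the largest increases among the accessory genes tested in each line, and a missing call does not show the absence of a change.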

How the data were processed

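RNA was measured in 24 libraries, 3 for each of 4 treatments in 2 cell lines. The 3′ tag reads had been trimmed (BBDuk), mapped to hg38 (STAR) and counted per gene (featureCounts, GENCODE annotation) by the authors. They deposited a single table of raw counts, with no normalization. The strand setting of the counting is not given in the sources used here. Of the rows, 59609 named a gene, and 1 row without a name held 0 counts. Nothing in the labels says how the replicates were grown beyond their being replicates, so p-values measure the spread between these libraries.

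Groups were taken from the labels. Counts were fitted with edgeR 4.0.16 (R 4.3.3, limma 3.58.1): filterByExpr, TMM, robust dispersions and the quasi-likelihood F test, within the 12 libraries of each line, and over all 24 libraries for comparisons between lines. Adjusted p-values cover all genes tested, with a threshold of 0.05. SE is the log2 fold change divided by the square root of F. The fit was tested on simulated data. Exon overlap was read from GENCODE v44 on GRCh38: 19 members share exons with a gene on the other strand and 8 with one on the same strand. Alternatives were DESeq2 1.42.0, its size factors, library totals, no filter, a minimum fold of 1.5, a fit of the compared groups, a replicate block and each library left out.

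The members and lists were chosen with earlier results of these data known. The genes described in full were, in each role, those with the largest and the smallest absolute abemaciclib fold change in MDA-MB-453, all members called for fulvestrant, for the combination against abemaciclib or for the interaction, and the 3 with the largest and the 3 with the smallest difference between lines. Promoters were shown for large falls with an E2F word and for members called in neither line. ORC2, PRIM1, MCM2, the GINS genes and the MCM10, CDC45 and ORC1 promoters were added after their values were seen. Same-numbered replicates of different groups did not deviate together (correlations from -0.092 to 0.045 over 36 pairs), so the numbers were not taken to pair libraries. Replicate libraries differed by more than sampling noise (chi-square per degree of freedom 2.64 to 8.65 over 24 pairs), so none was a copy. Intervals and limits from counts cover counting error only.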

Additional observations from a re-analysis of the deposited data

Results flagged for a closer look

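The response to abemaciclib differed between the lines, by the test of the difference itself, for 32 of the 50 members, and the response to the combination for 28. Among the members described in full, the difference (MDA-MB-453 minus MDA-MB-231, log2 scale) was -0.72 for MCM4, -3.31 for MCM6, -2.84 for ORC1, -3.10 for CDC45, -1.32 for RECQL4, -2.17 for POLE2, -1.69 for PCNA, -0.99 for FEN1 and -4.57 for CLSPN. The fitted value of -9.34 for MCM10 depends on the prior count, because all 3 abemaciclib libraries of MDA-MB-453 held 0 counts.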

How the results depend on the processing

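The abemaciclib counts of 36 and 42 members ranged from 30 to 33 and from 41 to 43 without each library in turn. With a minimum fold of 1.5 tested for, abemaciclib called 15 members and the combination 22 in MDA-MB-231, fulvestrant, the combination against abemaciclib and the interaction each called 0 in MDA-MB-453, the combination differed between lines for 18, and untreated cells for 20. A fit of the compared groups called 1 member for the combination against abemaciclib in MDA-MB-453, where the filter on low counts removed CDC45. Without each library in turn, that count ranged from 0 to 2, fulvestrant in MDA-MB-453 from 0 to 3, and the interaction from 1 to 4 in MDA-MB-453 and from 0 to 2 in MDA-MB-231 (2 without fulvestrant replicate 1). The 200-base promoter window gave E2F shares of 28.6% and 3.77%. With a replicate block abemaciclib called 35 and 42 members and the combination 36 and 43, losing PRIM2 in MDA-MB-231 for both (adjusted p of 0.0556 and 0.0592) and, for the combination in MDA-MB-453, ORC2 (adjusted p = 0.0541) and TIPIN (adjusted p = 0.0846); the block moved no count by over 1.5 times.

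Directions turned for uncalled values alone. ORC3 in MDA-MB-453 was -0.03 with library totals and -0.13 to 0.20 without each library. Differences between lines ran from -0.01 to 0.69 for ORC3, -0.07 to 0.39 for CDC7, -0.17 to 0.31 for POLE, -0.05 to 0.33 for MCM8 and -0.08 to 0.27 for DBF4. Of 949 values of named genes under the alternatives, 868 kept direction and call, 60 lost the call, 4 gained one and 17 turned. DNA2 gained its difference between lines in DESeq2 (-1.81, adjusted p = 0.048), and CDC7 its fall in MDA-MB-453 with library totals (-0.95, adjusted p = 0.0461). The cause was not tested. Depth limits MCM10, CDC45, CLSPN and ORC1 in treated MDA-MB-453.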
